A study of Mus musculus with 8 samples.

Results

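Notch receptors, their ligands and the Hey target genes were followed as a set of 10 named genes among the 49671 genes of a mouse tumor count table. The set holds the receptors Notch1, Notch2, Notch3 and Notch4, the ligands Jag1, Jag2, Dll1 and Dll4, and the targets Hey1 and Heyl. All 10 were found by symbol. A filter on low counts kept 9 of the 10, together with 11505 genes in all, and left out Heyl.

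RNA came from 8 tumors of 1 group, and no control tissue was among the samples. Every tumor had the genotype HprtCre with Ewsr1-loxP and Atf1-loxP, a design in which Cre recombines loxP sites and can join the genes into the fusion that in human patients marks clear cell sarcoma of soft tissue. The animals received no drug, and tumors were snap frozen when the primary tumor had made the animal moribund. The labels give neither the strain, age and sex of the animals nor the cells in which Cre acted. The tumors are titled 1, 2L, 2R, 3, 4a, 4b, 5 and 6. The labels do not explain these numbers and suffixes, so all tests below measure the spread between these libraries, which may be technical.

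Notch receptors span the cell membrane and are activated by Jagged or Delta-like ligands on a neighboring cell. Cleavage by ADAM proteases and then by gamma-secretase frees the intracellular part, which joins the DNA-binding protein RBPJ and switches on repressor genes of the Hes and Hey families. In blood vessels, Dll4, Notch1 and Notch4 act mainly in endothelial cells, and Notch3 and Heyl in the pericytes and smooth muscle cells around them (mural cells).

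Library totals ran from 4817902 counts in tumor 3 to 19682149 in tumor 2L. Levels are given as CPM, the count of a gene scaled to a common library size, after scaling of the libraries by trimmed means of M-values (TMM). Library 3 stood apart. It held the fewest counts, 3 noncoding RNAs (Gm26917, Gm42418 and Gm23935) took 39.9% of them, against 0.551% to 14.3% in the other 7, and its TMM factor was 0.394, against 0.83 to 1.36. Scaling by library totals alone moves the median gene of library 3 by -1.33 on the log2 scale and that of the others by -0.27 to 0.45, so a highest or lowest tumor of a member that changes under totals is given with it. Of 7 melanocytic markers, Mitf was present at 30.3 to 130 CPM, Dct was present at up to 74.0 CPM, Sox10 did not exceed 0.235 CPM, Pmel did not exceed 1.91 CPM, and Tyr, Tyrp1 and Mlana had no count in any library, where the limit that 0 counts allow is 0.118 to 1.598 CPM. In these bulk samples, fewer cells of a type and less RNA per cell cannot be told apart.

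Notch2 was the main receptor transcript in every tumor. Counting each receptor per kilobase of exon, Notch2 made up 48.2% to 84.2% of the 4-receptor pool, with a mean of 64.2 ± 13.9% (SD, n = 8). Notch1 followed at 14.1 ± 5.56%, Notch4 at 11.1 ± 9.18% and Notch3 at 10.6 ± 7.52%, and the ranges of these last 3 overlapped between tumors. Within a tumor, Notch1 exceeded Notch3 per kilobase in all but tumor 5. It exceeded Notch4 in all but tumor 3, with ratios of Notch4 to Notch1 of 0.377 (2R) to 0.901 (4b), and 3.21 in 3. Differences between the receptors were not tested. The mean level per kilobase was 27.3 ± 8.19 CPM for Notch2, 6.03 ± 2.82 CPM for Notch1, 4.77 ± 4.10 CPM for Notch4 and 4.41 ± 3.10 CPM for Notch3 (SD, n = 8). Notch2 lay at the 91.3rd percentile of the genes kept by this measure, and the other receptors between the 40.7th and the 52.9th.

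Notch2 (ENSMUSG00000027878, mm10 chromosome 3, 98013527 to 98150361, plus strand) had the smallest spread of the 9 members kept under TMM scaling. Its levels were 450.4 CPM (tumor 6), 405 (1), 309 (2R), 256 (2L), 249 (3), 249 (4b), 224 (4a) and 209.6 (5). Tumors 6 and 1 were high and the other 6 lay between 209.6 and 309 CPM. By library totals tumor 6 stayed highest, at 572 CPM, and tumor 3 was lowest, at 97.1 CPM. On the log2 scale that range was wider than the range of Hey1 by library totals, 4.77 to 19.9 CPM. Under TMM scaling the SD of the log2 CPM of Notch2 over the 8 tumors was 0.40, at the 33.3rd percentile of all genes kept.

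Notch1 (ENSMUSG00000026923, chromosome 2, 26457903 to 26516663, minus strand) differed 3.84-fold between the highest and the lowest tumor. Its levels were 159.5 CPM (2L), 121 (6), 99.2 (5), 83.2 (4b), 76.0 (4a), 62.3 (3), 43.5 (1) and 41.6 (2R). The highest and the lowest level thus came from 2 libraries that share a title number. By library totals, 2L stayed highest and 3 was lowest.

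Notch3 (ENSMUSG00000038146, chromosome 17, 32120820 to 32166852, minus strand), the receptor of mural cells, was high in 2 tumors. It reached 87.8 CPM in tumor 5 and 59.5 in 2L. The other tumors held 20.95 CPM (1), 18.7 (2R), 19.2 (3), 25.3 (4a), 32.8 (4b) and 21.2 (6). By library totals tumor 5 stayed highest and tumor 3 was lowest. Tumor 5 was also the one library in which Notch3 exceeded Notch1 per kilobase of exon. The ratio was 1.56 (95% interval 1.42 to 1.71, counting error only), against 0.307 to 0.847 in the other 7. Its size depends on the gene length used. With the length of the longest transcript, Notch3 took 24.3% and Notch1 23.2% of the pool in tumor 5. Counts there were 834 for Notch3 and 942 for Notch1. In that tumor Notch3 took 26.9% of the receptor pool per kilobase, and 20.8% of receptor counts (Wilson 95% interval 19.6% to 22.1%).

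Notch4 (ENSMUSG00000015468, chromosome 17, 34564268 to 34588503, plus strand), best known from endothelium, varied most among the receptors under TMM scaling. It stood at 113 CPM in tumor 3, 44.02 in 6, 42.5 in 4b, 37.1 in 2L, 25.5 in 4a, 24.9 in 5, 11.4 in 1 and 8.88 in 2R. The SD of its log2 CPM was 1.16, at the 92.1st percentile. The first place of tumor 3 depends on scaling: by library totals tumor 3 had 44.2 CPM and tumor 6 had 55.9. Under TMM scaling the log2 range over the tumors was 3.66, and 2.32 without library 3. By library totals Notch3 had a wider range than Notch4. It ran from 7.47 CPM (3) to 85.5 CPM (5), and Notch4 from 7.26 CPM (2R) to 55.9 CPM (6). Within a library no scaling enters, and there Notch4 took 32.0% of the receptor pool per kilobase in tumor 3, against 3.14% to 13.8% in the other 7. In counts this was 213 of 834 in tumor 3, or 25.5% (Wilson 95% interval 22.7% to 28.6%), and at most 10.4% elsewhere (4b, 9.63% to 11.3%).

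**Figure D1:**
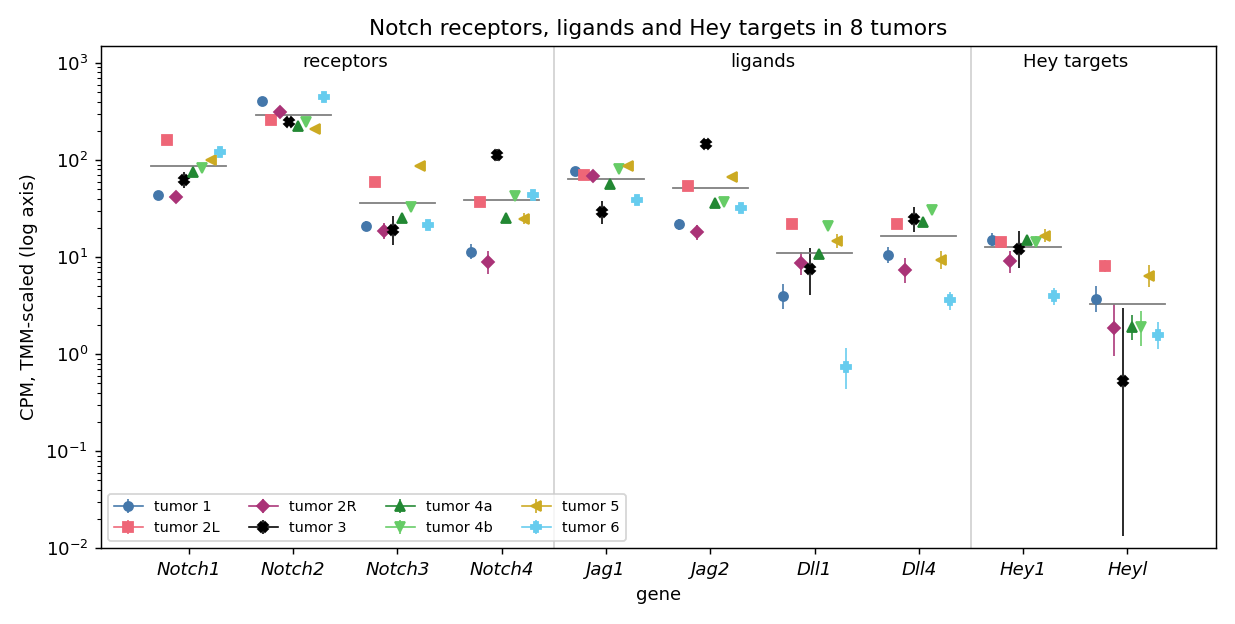
Level of each gene in each of the 8 tumors, in TMM-scaled CPM on a log axis, with 1 marker per tumor, bars for the exact Poisson 95% interval of the count and a grey line for the mean. Notch2 lies above the other receptors in every tumor, and under this scaling Notch4 and Jag2 are highest in tumor 3 and Dll1, Dll4 and Hey1 lowest in tumor 6.

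Jag1 was the main ligand transcript in 7 of the 8 tumors, and Jag2 in tumor 3. Per kilobase, Jag1 made up 46.4 ± 16.4% of the 4-ligand pool, Jag2 28.1 ± 15.9%, Dll4 15.9 ± 7.11% and Dll1 9.65 ± 5.42% (SD, n = 8). Mean levels per kilobase followed the same order, at 10.9 ± 3.501 CPM for Jag1, 7.44 ± 6.04 for Jag2, 4.24 ± 2.53 for Dll4 and 2.64 ± 1.79 for Dll1. Neighbors in this order overlapped.

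Jag1 (ENSMUSG00000027276, chromosome 2, 137081456 to 137116644, minus strand), the ligand mutated in Alagille syndrome in humans, had the smallest spread of the ligands under TMM scaling. Its levels were 85.9 CPM (5), 80.0 (4b), 78.0 (1), 70.0 (2L), 69.3 (2R), 56.4 (4a), 38.4 (6) and 29.3 (3). Tumors 3 and 6 were the lowest, and tumor 3 was also lowest by library totals, while 4b took the highest place at 94.0 CPM, with tumor 5 at 83.7 CPM. Its log2 SD was 0.56, close to the 0.51 of the median gene. By library totals Jag1 had a log2 range of 3.03 and Jag2 a smaller one.

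Jag2 (ENSMUSG00000002799, chromosome 12, 112907819 to 112929776, minus strand) followed another order. It stood at 148 CPM in tumor 3, 66.8 in 5, 54.6 in 2L, 36.7 in 4b, 36.4 in 4a, 32.0 in 6, 21.8 in 1 and 18.1 in 2R. By library totals 2L was the highest at 70.7 CPM, with 3 at 57.7 CPM. Without library 3 the log2 range of Jag2 under TMM scaling was 1.90. The ratio of Jag2 to Jag1, in which scaling cancels, was 4.23 per kilobase in tumor 3 (95% interval 3.17 to 5.64) and lay between 0.218 (2R) and 0.698 (6) in the other 7. This rests on 278 counts of Jag2 and 55 of Jag1 in tumor 3, and intervals cover counting error only.

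Dll1 (ENSMUSG00000014773, chromosome 17, 15367354 to 15376872, minus strand) had the widest range of the 9 members kept. It stood at 21.8 CPM in 2L, 20.8 in 4b, 14.7 in 5, 10.8 in 4a, 8.72 in 2R, 7.46 in 3, 3.995 in 1 and 0.732 in 6. The highest tumor exceeded the lowest 29.8-fold, and the log2 SD of 1.52 lay at the 97.4th percentile. Without library 6 the log2 range was 2.40. Tumor 6 held 18 counts of Dll1 in one of the deepest libraries, which gives an exact Poisson 95% interval of 0.434 to 1.16 CPM. Dll1 made up 0.979% of the ligand counts there (Wilson 95% interval 0.62% to 1.54%), against 3.49% to 12.9% elsewhere.

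Dll4 (ENSMUSG00000027314, chromosome 2, 119325784 to 119335962, plus strand), the ligand of sprouting endothelium, stood at 30.2 CPM in 4b, 24.5 in 3, 23.1 in 4a, 22.1 in 2L, 10.6 in 1, 9.37 in 5, 7.32 in 2R and 3.58 in 6. Tumors 4b, 3, 4a and 2L were above 20 CPM and the others at or below 10.6. The highest and the lowest tumor were the same by library totals, but tumor 3 then had 9.55 CPM and lay with the lower tumors, against 28.6 to 35.5 CPM in 2L, 4a and 4b. Dll4 took 25.6% of the ligand pool per kilobase in 4a and 24.7% in 4b, against 7.55% in 6 and 8.04% in 5.

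**Figure D2:**
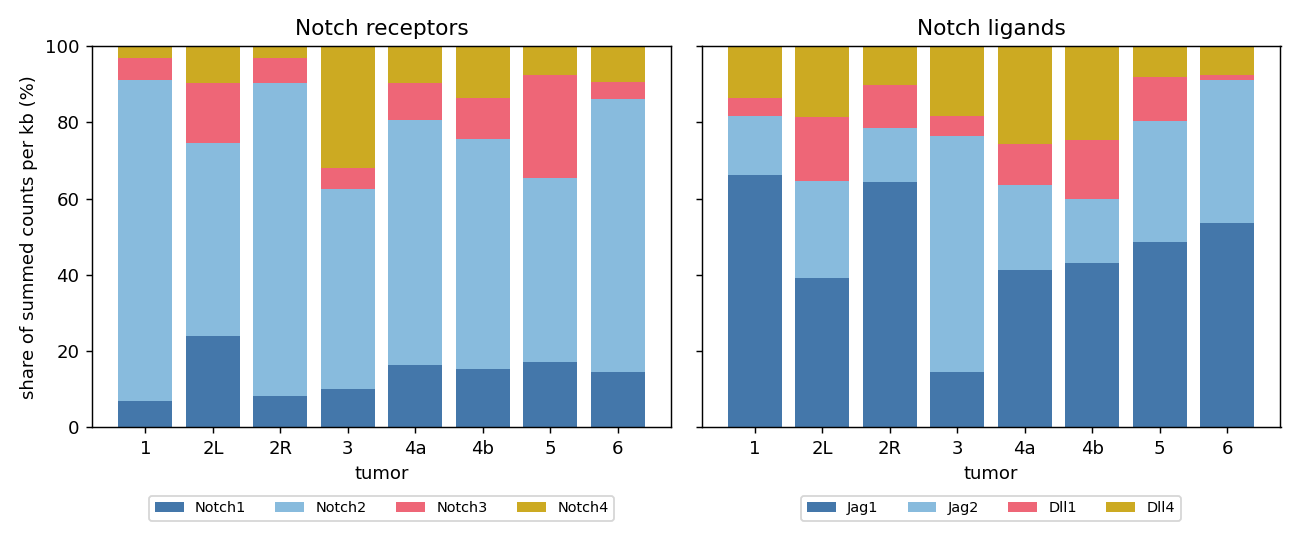
Share of each receptor (left) and of each ligand (right) in the summed counts per kilobase of its family, in percent, with 1 bar per tumor. Notch2 holds 48.2% to 84.2% of the receptor pool, and tumor 3 differs in both panels, with 32.0% Notch4 among receptors and 61.8% Jag2 among ligands.

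Of the Hey targets, Heyl was low, and Hey1 exceeded it in every tumor. Per kilobase, Hey1 averaged 3.86 ± 1.28 CPM (SD, n = 8), at the 35.5th percentile of the genes kept and above Dll1 at 2.64 CPM. Heyl averaged 0.638 ± 0.523 CPM, a level at the 1.33rd percentile. Hey1 (ENSMUSG00000040289, chromosome 3, 8663359 to 8667256, minus strand) encodes a repressor induced by Notch in endothelium and other cells. It stood at 16.6 CPM in tumor 5, 15.2 in 1, 15.2 in 4a, 14.3 in 4b, 14.3 in 2L, 12.3 in 3, 9.03 in 2R and 3.94 in 6. Tumor 6 stood below the others, and 5 tumors were between 14.3 and 16.6 CPM. Without library 6 the log2 range was 0.87. By library totals 4a was the highest, at 19.9 CPM, and tumor 3 the lowest, at 4.77 CPM, with tumor 6 next at 5.003.

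Heyl (ENSMUSG00000032744, chromosome 4, 123233556 to 123249875, plus strand), a Notch3 target of mural cells, had 434 counts in all. It stood at 8.15 CPM in 2L, 6.42 in 5, 3.73 in 1, 1.90 in 4a, 1.89 in 4b, 1.87 in 2R and 1.59 in 6. Tumor 3 had a single count, 0.533 CPM with an exact Poisson 95% interval of 0.0135 to 2.97. That interval lay below those of 2L (from 7.08) and 5 (from 4.91). It overlapped those of the other tumors. Overlap of intervals is not a test, and a place of tumor 3 below those tumors was not tested. The highest levels of Heyl fell in 2L and 5, the tumors that were also highest in Notch3. Per kilobase, Heyl reached 0.365 of the level of Hey1 in 2L and 0.0803 in 4a, leaving out tumor 3 with its single count.

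As the fusion that the genotype is built to make keeps the DNA-binding part of ATF1, a factor that binds cyclic AMP response elements (CREs), the member promoters were read for that element. RefSeq promoter windows (GRCm38.p6, from 250 bases before to 50 after the start) matched 8 of the 10 members in 9 windows, all but Hey1 and Heyl. None held the full element TGACGTCA on either strand, which 1.79% of all 32851 windows hold, and none held the RBPJ core TGGGAA, which 25.6% hold. The half-site TGACG, found in 20.8% of all windows on either strand and contained in the full element, occurred in the windows of Jag1 and Notch3. Both are shown 5′ to 3′ along the gene with the half-site, which lies on the opposite strand in both, in capitals. The Jag1 window is chr2:137116471-137116770 and that of Notch3 is chr17:32166841-32167140, both on the minus strand. A match describes the letters of the window only.
Jag1: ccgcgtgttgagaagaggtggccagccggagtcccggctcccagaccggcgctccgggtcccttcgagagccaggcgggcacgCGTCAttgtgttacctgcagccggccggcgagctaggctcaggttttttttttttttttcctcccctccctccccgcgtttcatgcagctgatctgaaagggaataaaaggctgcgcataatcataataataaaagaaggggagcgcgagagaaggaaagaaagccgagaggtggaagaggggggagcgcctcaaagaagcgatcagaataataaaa
Notch3: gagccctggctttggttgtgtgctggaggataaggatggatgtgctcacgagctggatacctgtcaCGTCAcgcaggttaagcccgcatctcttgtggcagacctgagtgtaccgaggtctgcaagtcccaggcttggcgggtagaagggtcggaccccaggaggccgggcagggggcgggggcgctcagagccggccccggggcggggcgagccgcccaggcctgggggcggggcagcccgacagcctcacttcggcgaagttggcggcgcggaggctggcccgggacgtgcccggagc

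Most members varied between tumors more than the median gene. Of the 9 kept, 8 had a log2 SD above the median of all genes kept, with a median of 0.83, against 0.51 for all 11505. The exception was Notch2. A difference of at least 4-fold between the highest and the lowest tumor was present in 6 of the 9, against 34.4% of all genes kept. The biological coefficient of variation estimated by edgeR ran from 0.366 for Notch2 to 0.756 for Dll1, against a median of 0.373 over all genes. These shares describe the members and were not tested.

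Whether members differed among the 6 title numbers depended on the test and the scaling. In edgeR's quasi-likelihood F-test, 0 of the 9 members were called, as were 0% of the 11505 genes, at an adjusted p of 0.05. Adjusted p ran from 0.169 for Dll1 to 0.725 for Notch1. Without adjustment, Dll1 alone of the members fell under 0.05 in that test, as did 24.5% of all genes. The DESeq2 likelihood ratio test called 4 of the 9 (Dll1, Jag2, Notch4 and Dll4, adjusted p of 0.000625, 0.00967, 0.0198 and 0.0352) and 20.7% of all genes. With library totals alone, edgeR called another set of 4 (Notch3, Jag1, Dll1 and Dll4), among 33% of all genes, and with no filter beyond 1 count it called 5 of 10 (Notch3, Notch4, Jag2, Dll1 and Dll4), among 20.6%. The spread within a number rests on 2L with 2R and 4a with 4b only. With 2L or 2R left out it rests on 4a with 4b alone, the pair with fewer genes at least 2-fold apart. Calls from those fits carry that limit. When 2L was left out, edgeR called 7 of the 8 members then kept (all but Notch2), among 38.7% of all genes, and without 2R it called 7 of 9 (all but Notch2 and Jag1), among 39.3%.

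**Figure D3:**
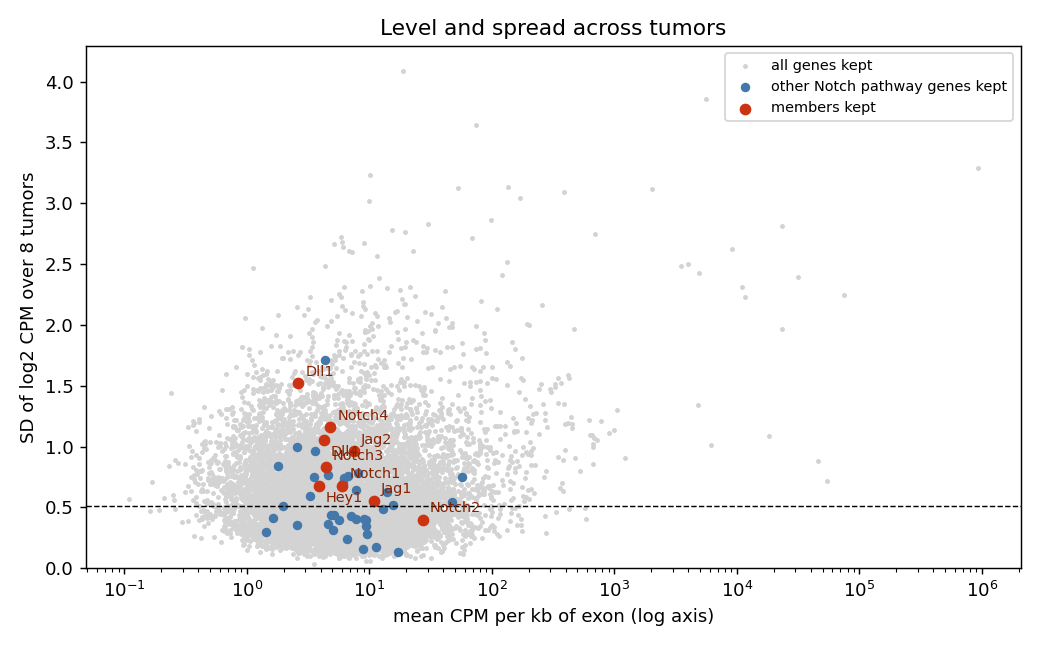
SD of log2 CPM over the 8 tumors against mean CPM per kilobase of exon (log axis), for all 11505 genes kept (grey), other Notch pathway genes kept (blue) and the 9 members kept (red), with a dashed line at the median SD of 0.51. Notch2 is the one member below the line, and Dll1 has the largest SD among the members.

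Libraries 2L and 2R, which share a title number, differed in most members. Levels in 2L were at least 2-fold higher for 7 of the 10, namely Heyl, Notch4, Notch1, Notch3, Jag2, Dll4 and Dll1, whose log2 ratios (2L over 2R) were 2.05, 2.05, 1.94, 1.66, 1.59, 1.57 and 1.31. None was at least 2-fold lower. Among all genes kept, 9.03% were at least 2-fold higher in 2L and 8.33% at least 2-fold lower. Hey1, at 0.65, Jag1, at 0.01, and Notch2, at -0.27, did not reach 2-fold. By library totals the ratio of Notch2 turned positive, at 0.44, and Hey1 passed 2-fold, at 1.36. Each pair is 1 library against 1, so these ratios have no test.

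Most vessel markers were also higher in 2L. Of 13 endothelial markers 11 were at least 2-fold higher in 2L, among them the junction genes Pecam1 and Cdh5 at log2 ratios of 1.47 and 2.31. The VEGF receptor gene Kdr and Egfl7, at -3.21 and -1.98, were the 2 that were lower. Of 11 mural markers 9 were at least 2-fold higher in 2L, with a median log2 ratio of 2.31 and the largest ratio, 5.70, for Des. The exceptions were Myh11, at 0.63, and Rgs5, at -0.11. Rgs5 was the most abundant of the list, with 465 CPM in 2L and 502 CPM in 2R. All 8 keratinocyte markers were at least 2-fold higher in 2L, with a median log2 ratio of 3.84. Of these, Krt5, Krt15 and Trp63 were near the floor, at no more than 1.45 CPM in either library. Of 8 skeletal muscle markers 6 were at least 2-fold higher and 1 at least 2-fold lower (Pax7, at -1.93), with a median of 7.62. Mitochondrial ribosomal RNA took 0.877% of the counts in 2L and 24.7% in 2R. The part of cell make-up and of RNA composition in these differences was not tested.

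Between 4a and 4b none of the 10 members reached a 2-fold difference. So few genes did so (2.53% of all genes kept were at least 2-fold higher in 4a and 1.92% at least 2-fold lower) that a count of 0 is near the background. Dll1 came closest, with 10.8 CPM in 4a and 20.8 CPM in 4b and a log2 ratio of -0.93, followed by Notch4 at -0.73 and Jag1 at -0.50. Among the ratios of all genes kept these lay at the 2.43rd, 5.09th and 11.97th percentile. Of the 10 members 8 had a ratio below 0, among them Jag2 at -0.01. The median ratio was -0.26 for the members and -0.01 for all genes kept, so a ratio below 0 was common. The endothelial markers had a median log2 ratio of -0.22 and the mural markers of 0.30.

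**Figure D4:**
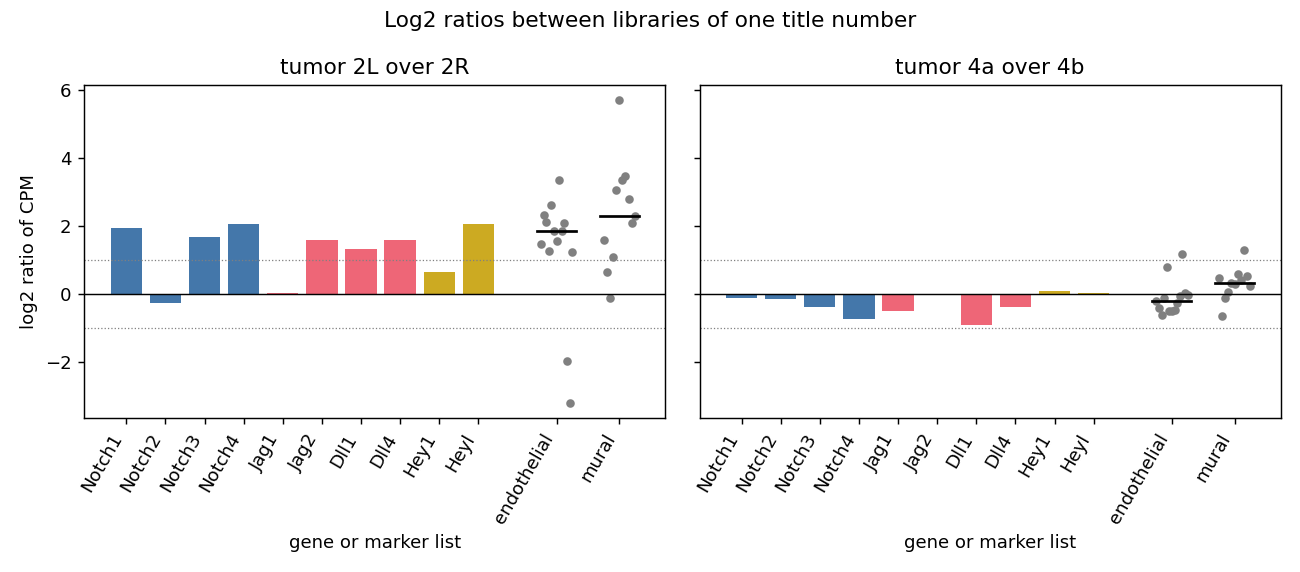
Log2 ratio of CPM between libraries of one title number, 2L over 2R (left) and 4a over 4b (right), for the 10 members (bars) and for endothelial and mural markers (1 point per gene, with a line at the median). Dotted lines mark 2-fold. In 2L, 7 members exceed 2-fold, as do most vessel markers, and between 4a and 4b none does.

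Relations of members to vessel and other cell markers were computed over the 6 title numbers, with the mean of libraries that share a number. A marker score was the mean log2 CPM of its list, and 15 relations were computed. None passed the correction: the smallest adjusted p was 0.533 for Pearson's r and 0.769 for Spearman's rho (two-sided exact permutation tests).

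Dll4 had the highest r with the endothelial score over the 6 numbers. Pearson's r was 0.80, with an exact permutation p of 0.0569 and an adjusted p of 0.533. Spearman's rho was 0.60, with an exact permutation p of 0.242 and an adjusted p of 0.769. Numbers 4 and 6 were the 2 furthest from the median score, and the relation rests on them, as r fell to 0.06 when both were left out. Tumor 6 had the lowest endothelial score, 3.80, with Pecam1 at 29.1 CPM and Cdh5 at 20.5 CPM, and 4b the highest, 5.86, with 166 and 119 CPM. Kdr and Egfl7 of the same list ran the other way, with Kdr at 833 CPM in 6 and 498 CPM in 4b, and Egfl7 at 365 and 51.4 CPM, and the summed levels were 1318 CPM in 6 and 1399 CPM in 4b. For Hey1 with the same score r was 0.71 (adjusted p = 0.533, exact permutation p = 0.153). It was -0.04 without 4 and 6, and 0.16 when library 6 alone was left out.

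The other endothelial relations had a lower r over the 6 numbers. The score gave r = 0.35 with Jag1, 0.05 with Notch4 and -0.05 with Notch1 (exact permutation p of 0.488, 0.921 and 0.938, adjusted p of 0.665, 0.938 and 0.938). Without numbers 4 and 6 these were -0.07, 0.43 and 0.96, so the order of the relations depends on those numbers. All 13 endothelial markers averaged at least 1 CPM, and their summed level ran from 460 CPM in tumor 1 to 1765 CPM in 2R, where Kdr alone held 1430 CPM.

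Notch3 gave r = 0.63 with the mural score (exact permutation p = 0.178, adjusted p = 0.533) and 0.92 without numbers 4 and 6. With Heyl, Notch3 gave r = 0.72 and rho = 0.83 (exact permutation p of 0.117 and 0.0583, adjusted p of 0.533 and 0.769). Leaving out numbers 2 and 5 gave 0.35, and that r therefore depends on them. All 11 mural markers averaged at least 1 CPM, led by Rgs5 at 365 ± 177 CPM, Mcam at 140.2 ± 86.6 CPM and Cspg4 at 41.1 ± 26.3 CPM (SD, n = 8), and their sum ran from 301 CPM in tumor 6 to 1155 CPM in 2L. The mural score gave r = 0.68 with Hey1, 0.53 with Jag1 and 0.32 with Heyl (exact permutation p of 0.103, 0.286 and 0.543, adjusted p of 0.533, 0.536 and 0.679), and 0.17, 0.37 and 0.50 without numbers 4 and 6.

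The remaining relations also missed the threshold. Jag2 with the keratinocyte score gave r = 0.58, Notch2 with the macrophage score 0.51, Dll1 with the skeletal muscle score 0.37, Dll4 with Notch4 0.24 and Notch1 with Hey1 -0.58 (exact permutation p of 0.222, 0.354, 0.483, 0.65 and 0.256, adjusted p of 0.536, 0.590, 0.665, 0.75 and 0.536). Without the 2 numbers furthest from the median on the first measure, Notch2 with the macrophage score turned to -0.47 and Notch1 with Hey1 to 0.66, while Dll4 with Notch4 gave 0.88, Jag2 with the keratinocyte score 0.80 and Dll1 with the muscle score 0.39. Keratinocyte markers were summed at 1545 CPM in 2L, 1201 in 5 and 385 in 3, and at 2.48 to 96.96 CPM in the other 5. Epcam, Dsg3 and Dsp were the highest on average, and the list did not move together. Krt5 led in 3 at 193 CPM, but stood at 0.392 CPM in 2L and 0.105 CPM in 5. Krt14 stood at 45.6 CPM in 2L, 55.1 in 5 and 2.66 in 3. Trp63 did not exceed 0.784 CPM in any library, and Krt15 did not exceed 1.45 CPM. Skeletal muscle markers, led by Ttn, Myh4 and Neb, summed to 20181 CPM in 2L, 6558 in 3 and at most 121 CPM elsewhere. Of the lymphocyte markers, T and NK cell genes summed to 5.77 to 105 CPM and B cell genes to 1.07 to 6.46 CPM. The 105 CPM fell in tumor 3, where Il2rb alone held 86.3 CPM. The T and NK cell score was highest in 2L, at 2.94, with 2.32 in tumor 3.

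**Figure D5:**
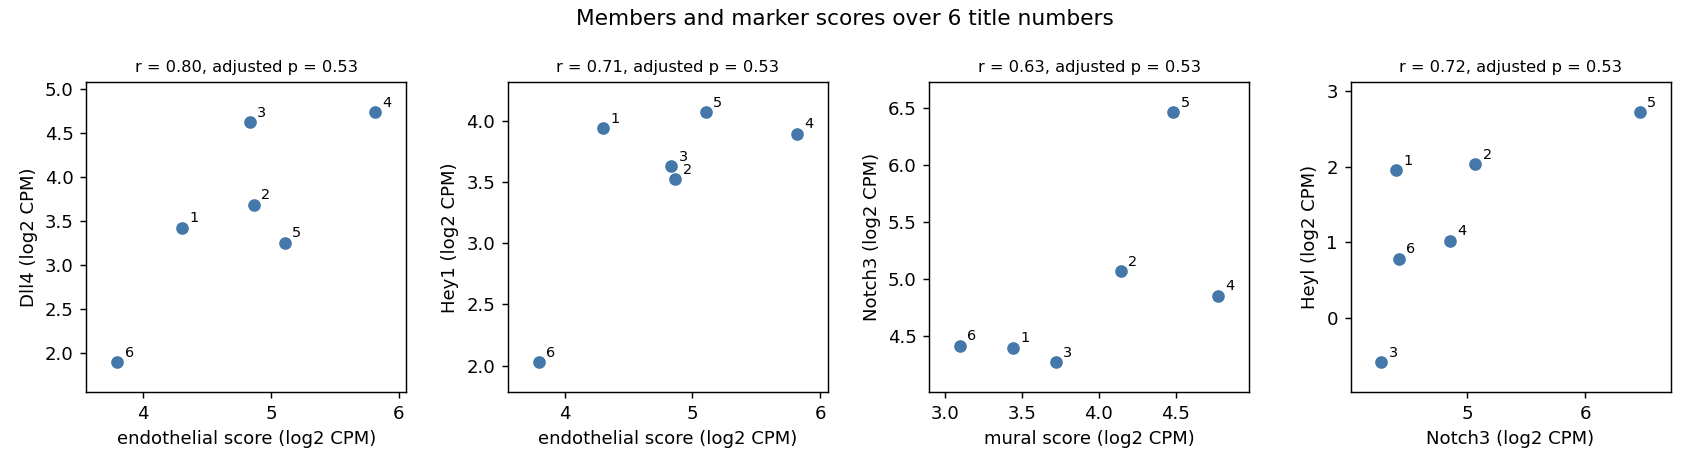
Dll4 and Hey1 against the endothelial score, Notch3 against the mural score, and Heyl against Notch3, in log2 CPM, with 1 point per title number. Pearson's r lies between 0.63 and 0.80 and the adjusted exact permutation p is 0.533 in each panel.

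Other Notch pathway genes were taken as a list of 45, of which 36 passed the filter and 0 were called among the title numbers by edgeR, with 7 under an unadjusted p of 0.05, beside 24.5% of all genes. The DESeq2 test called 7 of the 36, beside 20.7% of all genes, so neither count stands above the background. Their median log2 SD was 0.46, and 17 of 36 lay above the median gene, against 8 of the 9 members.

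Rbpj, the DNA-binding partner of cleaved Notch, stood at 32.9 ± 9.28 CPM (SD, n = 8) with a log2 SD of 0.36. Mib1, a ubiquitin ligase needed for ligands to signal, stood at 189 ± 17.1 CPM with a log2 SD of 0.13, at the 0.713th percentile. The protease gene Adam10, at 232 ± 76.9 CPM, and Ncstn, a gamma-secretase subunit, at 228 ± 89.0 CPM, were the most abundant processing genes per kilobase. The histone acetyltransferase gene Kat2b stood at 63.0 ± 18.9 CPM. Pofut1 and Poglut1, which add the first sugars to Notch, stood at 50.7 ± 16.2 and 42.3 ± 13.3 CPM.

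Some pathway genes were highest in tumor 3 under TMM scaling. The corepressor gene Spen reached 231 CPM there, the Fringe gene Rfng 33.0 CPM and Neurl1a, a ubiquitin ligase gene, 103 CPM. By library totals Rfng alone of these kept its highest value in tumor 3. Neurl1a had the widest spread of the list's kept genes, from 3.43 CPM in 2R, with a log2 SD of 1.71. Dtx3 stood at 40.0 ± 12.5 CPM.

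Of 6 further target genes, Hes1, Hes6 and Nrarp passed the filter. Hes1, the best known Notch target of the Hes family, had 21.6 CPM (2L), 21.3 (4a), 20.4 (1), 20.01 (5), 16.8 (2R), 16.5 (4b), 11.1 (6) and 4.26 (3). Tumors 3 and 6 were lowest in Hes1, as in Jag1, and by library totals 2R lay just below 6. Nrarp, which dampens Notch signals, was highest in 3 at 16.5 CPM, a place it lost to 2L by library totals, and lowest in 6 at 1.34 CPM. Hes6, which opposes Hes1, stood at 33.6 CPM in 3 and at 7.12 to 13.8 CPM elsewhere, and by library totals tumor 1 was highest. Hey2, the family's arterial member, averaged 1.56 CPM, Hes5 0.523 CPM and Hes7 0.128 CPM.

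The 4 other ligand genes did not pass the filter. Dlk1 averaged 8.22 CPM and reached 29.0 CPM in tumor 5. Dner reached 15.9 CPM in tumor 1 and averaged 3.74 CPM. Dll3, which does not activate Notch in trans, averaged 2.21 CPM, with 4.67 CPM in 2R and 4.27 CPM in 6 (highest in 6 by library totals), and Dlk2 had 6 counts in all.

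Genes whose log2 CPM followed a member most closely were ranked by Pearson's r over the 8 libraries, as a description without a test. So many genes were ranked over so few libraries that high values arise readily. Dll4 was followed by Desi1, the VEGF receptor gene Flt1 and the basement membrane collagen gene Col4a2, at r = 0.957, 0.956 and 0.942. Notch3 was followed by the kinase gene Sgk1 and Isg20 (0.970 and 0.958). Hey1 was followed by Npy, which encodes neuropeptide Y, and Krt23 (0.970 and 0.953), both lowest in tumor 6 under TMM scaling.

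For Notch1 the closest were the cotransporter gene Slc12a7, Aftph and the junction gene Jam2 (r = 0.972, 0.952 and 0.946). For Notch2 they were Ppm1l, Igdcc4 and Sept6 (0.956, 0.947 and 0.937). Notch4 ran closest to B4galt6, Otof and Crim1 (0.978, 0.959 and 0.937), all highest in library 3 under TMM scaling, and without library 3 these gave 0.960, 0.966 and 0.888. Jag2 ran closest to Mis18a, Adamts20 and Baz1a (0.982, 0.968 and 0.966), and without library 3 at 0.959, 0.927 and 0.935. Jag1 was followed by the transporter gene Abcc1, vinculin (Vcl) and Dgka (0.974, 0.972 and 0.970), and Dll1 by Cish, an inhibitor of cytokine signals, Ier3 and Mmd (0.985, 0.979 and 0.974).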

How the data were processed

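Total RNA of 8 tumors was sequenced, with ribosomal RNA removed by RiboZero per the labels' protocols. The authors deposited 1 table of raw counts per Ensembl gene, mapped to samples through the column names given in the labels. The submitters' processing notes name build mm10 and the tools STAR 2.7.5a, RSEM, featureCounts and cutadapt. Which tool made the counts and whether strand was used are not given in the sources used here. Reads of a member and an overlapping or antisense gene can therefore not be told apart, and the overlapping genes held few counts (Gm17276, antisense to Notch3, 282 in all, against 4311 of Notch3). GENCODE M21 named 99.5% of identifiers and gave positions and exon lengths. The members and lists were chosen with earlier results of these data known.

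In R 4.3.3, edgeR 4.0.16 kept genes with filterByExpr for 1 group (0.92 CPM in each of the 8 libraries) and computed TMM factors. CPM is the count over kept counts times the factor. CPM by library totals uses all counts, and tests and log2 values with library totals alone use kept counts without a factor. Log2 CPM used a prior count of 2. The 6 title numbers were compared by the quasi-likelihood F-test of edgeR (robust prior, 2 residual degrees of freedom), adjusted after Benjamini and Hochberg over all genes kept, with DESeq2 1.42.0 as an alternative. Both the fit and the permutation tests were also run on simulated data, with an outcome that is not reported here. Relations used exact permutation tests, and neighbors were the 3 genes of highest r with a mean of at least 5 CPM. Named pathway genes were all other targets and ligands, Rbpj, and per class the 2 of highest level per kilobase and the 1 of largest SD, with the 3 highest genes of each marker list. Some genes that this rule names are not reported here.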

Additional observations from a re-analysis of the deposited data

Results flagged for a closer look

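Gaps at the end of a group were measured for log2 CPM of the 10 members and for the 8 pool shares, and 2 of these 18 sets were marked, where chance marks about 1 in 20. The level of Hey1 in tumor 6, 3.94 CPM, lay far below the others, with a gap to the next tumor of 0.573 of the whole range. By library totals tumor 3 was below it. The share of Notch4 in the receptor pool of tumor 3, 32.0%, lay far above the others, with a gap of 0.632 of the range.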

How the results depend on the processing

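The count of genes called among title numbers moved with the processing. It was 0 with TMM, with DESeq2 size factors, with TMM computed without the abundant RNAs and with a filter at a mean of 1 CPM. It was 3791 with library totals alone, 6260 with no filter beyond 1 count and 2383 with the DESeq2 likelihood ratio test. Leaving out each library in turn gave 0 to 4548, above 0 only without 2L (4457) and without 2R (4548). The number of members averaging at least 10 CPM, the number with an SD above the median gene, the number at least 2-fold apart within a pair, the tumors led by Notch2 or Jag1 and the 0 relations past the correction stayed within 1.5 times their reported value under each alternative run for them. Over these alternatives r of the endothelial score with Dll4 ran from 0.57 to 0.90 and r of Notch3 with Heyl from 0.59 to 0.89. Leaving out 2 title numbers was not among the alternatives, and it lowered these r to 0.06 and 0.35. Other relations collapsed or changed sign. The endothelial score ran from -0.58 to 0.68 with Notch1 and from -0.20 to 0.30 with Notch4. With Hey1 it ran from 0.16 to 0.88 and with Jag1 from 0.05 to 0.75. The mural score with Heyl ran from 0.11 to 0.72. Notch1 with Hey1 ran from -0.80 to 0.22 and Dll4 with Notch4 from -0.28 to 0.73. The muscle score with Dll1 ran from -0.21 to 0.49, and the macrophage score with Notch2 from 0.08 to 0.91. No paired analysis was possible because the labels give 1 group. Library 3 limits depth most, as 3 counts equal 1.598 CPM there.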
